A study of Mus musculus with 12 samples.

Results

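The enzymes that cut the extracellular matrix, the proteins that hold those enzymes in check and the enzymes that crosslink collagen and elastin were followed in kidneys of mice with polycystic disease, with and without *Casp1*. The set comprised every protein-coding gene whose symbol begins with *Mmp* and a number, the genes *Timp1* to *Timp4*, every gene whose symbol begins with *Adamts*, and *Lox* with *Loxl1* to *Loxl4*. These names gave 56 of the 22026 protein-coding genes in the table, itself holding 35275 genes. They divided into 23 *Mmp*, 4 *Timp*, 19 *Adamts*, 5 *Adamtsl* and 5 lysyl oxidase genes. The rule reads the symbol and the gene type and uses no measured value.

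RNA from kidney of 12 C57BL/6J mice, all 6 months old, was sequenced after selection of poly(A) RNA, with 4 mice in each group. WT mice carried neither mutation. RC/RC mice carried a hypomorphic missense change on both alleles of *Pkd1*, the gene mutated in most families with autosomal dominant polycystic kidney disease, and serve as a slowly progressing model of it. RC/RC:Casp1KO mice carried the same *Pkd1* alleles and lacked *Casp1*, which encodes the inflammasome protease Caspase-1; this line came from 1 deletion allele made with TALENs, so the allele and the loss of the protein cannot be told apart. Each group held 2 females and 2 males according to the labels, but the columns of the table give no sex. Mice are named here as those columns name them, B6_ for WT, RC for RC/RC and Del3_ for RC/RC:Casp1KO mice with the number of the mouse, and values are given in the order B6_2, B6_3, B6_4 and B6_6, then RC105, RC139, RC140 and RC143, then Del3_42, Del3_60, Del3_70 and Del3_105. Between 18019819 and 24869454 reads were counted in genes per mouse, of which 7.78% to 12.1% came from mitochondrial genes. Levels are given as CPM, the reads of a gene relative to the library size after scaling with TMM factors, or as FPKM, which is CPM per kilobase of gene, where genes are compared with each other. In 1 library, 3 reads corresponded to 0.121 to 0.167 CPM, and a gene at or under 3 reads was taken to be at the floor.

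Matrix metalloproteinases (MMPs) are zinc enzymes, secreted as inactive precursors or anchored in the membrane, that cleave collagens, elastin, proteoglycans and many non-matrix proteins. The ADAMTS enzymes are secreted relatives that process procollagens and cleave proteoglycans such as versican, and the ADAMTS-like proteins share their ancillary domains but lack the protease. TIMPs bind the active site of these enzymes, and lysyl oxidases oxidise lysines of collagen and elastin so that the fibres become crosslinked. In the kidney most of these genes are known from interstitial fibroblasts, vascular cells, macrophages and injured tubules, and their balance contributes to how much matrix accumulates in fibrosis.

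*Casp1* itself was measured first. It stood at 2.06, 1.29, 1.30 and 1.41 CPM in the WT mice, 3.37, 3.84, 4.26 and 2.62 CPM in the RC/RC mice and 0.665, 0.385, 1.05 and 0.664 CPM in the RC/RC:Casp1KO mice. The 3 groups did not overlap. *Casp1* was higher in RC/RC than in WT by a log2 fold change of 1.21 (SE 0.25, adjusted p = 0.0142), and lower in RC/RC:Casp1KO than in RC/RC by a log2 change of -2.35 (SE 0.32, adjusted p = 0.00514). The *Casp1* values matched the label of the RC/RC:Casp1KO mice. Gene counts cannot show the *Pkd1* allele, so the RC/RC label was not checked. *Pkd1*, whose allele carries a missense change, was not called in any comparison (adjusted p = 0.878 for RC/RC against WT). Tubule genes marked the tissue as kidney, with *Umod*, the uromodulin gene of the thick ascending limb, at a mean of 3949 CPM in WT mice, 2850 CPM in RC/RC mice and 3263 CPM in RC/RC:Casp1KO mice. The adrenal genes *Cyp11a1*, *Cyp11b1*, *Cyp21a1* and *Dbh* and the skeletal muscle genes *Ckm* and *Myh4* were at the floor, whereas *Star* of the adrenal list had 2.23 to 5.26 CPM and *Mylpf* of the muscle list 0.699 to 1.67 CPM in the 12 mice.

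A mouse in each of the RC/RC and RC/RC:Casp1KO groups stood apart in these genes. Mouse RC139 had the highest value of its group in 31 of the 41 members that could be tested in any comparison, whereas it was the highest in 26.9% of 15773 genes. Mouse Del3_70 was the highest of its group in 28 of the 41, against 28.3% of all genes. Mouse RC143 was the lowest of its group in 23 of the 41 members, against 30.7% of all genes. Mouse RC139 also held fat tissue transcripts, with *Adipoq* at 99.2 CPM, *Plin1* at 56.1 CPM, *Cidec* at 154 CPM and *Retn* at 71.8 CPM. Its adipose markers summed to 381 CPM, compared with 42.1 CPM in mouse RC143 and at most 18.7 CPM in any WT or RC/RC:Casp1KO mouse; their part in the levels of the set was not tested. Mitochondrial genes took the largest shares of reads in RC/RC mice RC139 (12.1%) and RC140 (11.6%). The calls of the members are therefore also given without mice RC139 and Del3_70.

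Per kilobase, *Timp3* was by far the most abundant member, at 300.1 FPKM in WT, 211 FPKM in RC/RC and 261 FPKM in RC/RC:Casp1KO mice on average. *Timp3* encodes the TIMP that stays bound to the matrix and inhibits ADAMTS enzymes as well as MMPs. It was followed over the 12 mice by *Timp2* at a mean of 33.9 FPKM, *Adamts1* at 13.6 FPKM, *Mmp14* at 12.2 FPKM and *Loxl1* at 11.1 FPKM. In the RC/RC mice alone the order after *Timp3* was *Timp2* with a mean of 55.0 FPKM, *Mmp14* with 21.1, *Loxl1* with 18.2, *Timp1* with 17.3 and *Adamts1* with 16.0. *Timp1* changed its place most visibly between the groups, from a mean of 0.567 FPKM in WT to 17.3 FPKM in RC/RC and 3.19 FPKM in RC/RC:Casp1KO mice. The FPKM of the 23 *Mmp* genes summed to 18.1 to 23.1 in WT mice, 41.7 to 86.8 in RC/RC mice and 22.3 to 46.6 in RC/RC:Casp1KO mice, and *Mmp14* gave the most in every mouse. The *Timp* genes together summed to 260 to 366 FPKM in WT and 260 to 330 FPKM in RC/RC mice, ranges that overlapped. *Timp3* made up 90.5% to 95.1% of that sum in WT mice and 56.4% to 85.7% in RC/RC mice, the lowest share being that of mouse RC139.

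**Figure D1:**
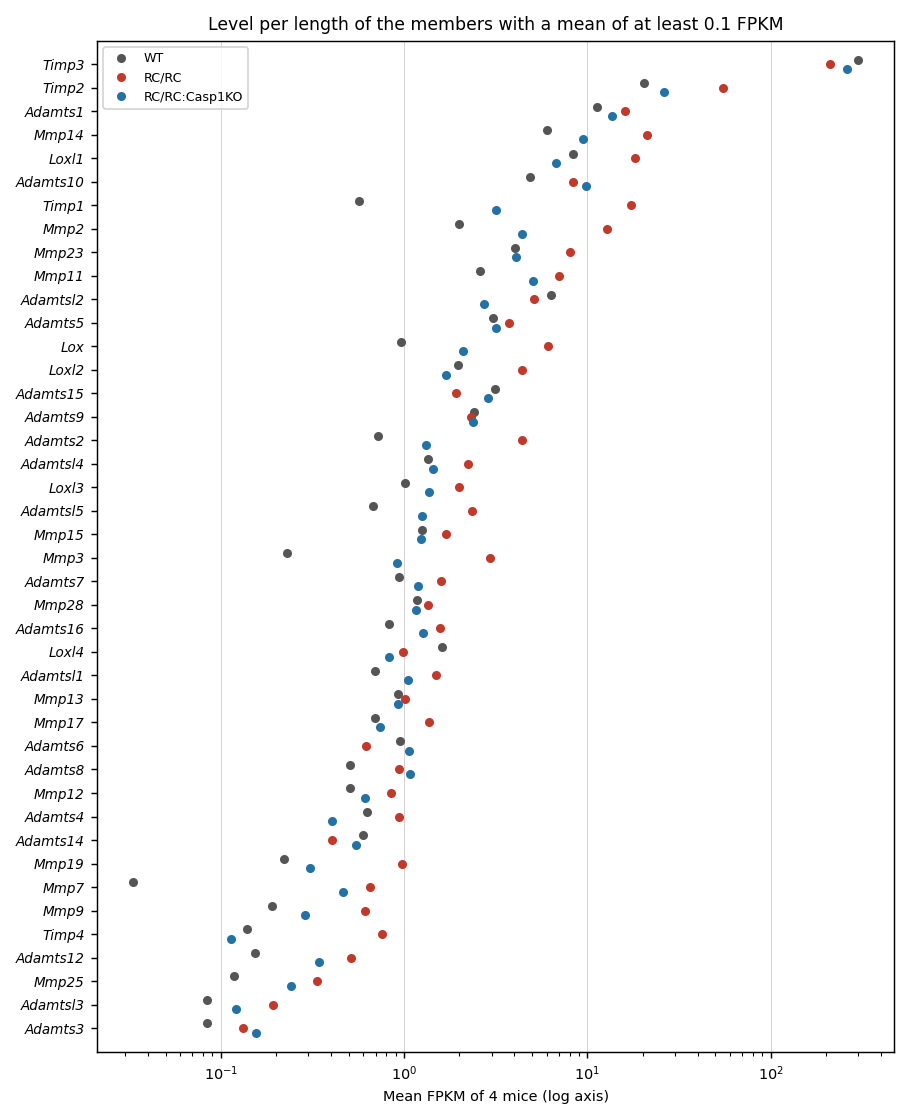
Mean FPKM (log axis) over the 4 mice of each group for the members with a mean of at least 0.1 FPKM, ordered by the mean over the 12 mice, with 1 point for each group. *Timp3* lies far to the right in all 3 groups, and the points of *Timp1* run from 0.567 FPKM in WT to 17.3 FPKM in RC/RC.

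The comparison of RC/RC with WT mice asked how the matrix enzymes differ in the cystic kidney at 6 months. Of the 56 members, 40 had enough reads for this test; the filter keeps a gene that has reads in 1 group alone, so the counts below describe the genes that passed and not all members. By edgeR's quasi-likelihood test, with p-values adjusted over all genes tested, 18 of the 40 (45%) were called higher in RC/RC at an adjusted p under 0.05, beside 9.76% of the 15243 genes tested. None was called lower, beside 3.18% of all genes; 2 of the 40 were lower at an unadjusted p under 0.05, and DESeq2 called 1 of them. The median log2 fold change of the members was 0.95, against -0.02 for all genes. The RC/RC mice all lay above the WT mice in 23 members, beside 12.5% of all genes, and all below them in 0 members, beside 7.01%. Because whole kidney was sequenced, more cells of a type and more RNA per cell cannot be told apart.

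The inhibitors did not move as 1 family. *Timp1*, the inducible secreted inhibitor (chromosome X, 20870166 to 20874735 in mm10), had 0.957, 0.335, 0.150 and 0.562 CPM in WT mice, 13.8, 29.6, 12.4 and 5.54 CPM in RC/RC mice, and 0.609, 0.885, 7.27 and 2.51 CPM in RC/RC:Casp1KO mice. Every RC/RC mouse was above every WT mouse, mouse RC139 was the highest, and 1 WT library held only 3 reads. Its log2 fold change was 4.91 (SE 0.62, adjusted p = 0.0016), or 4.34 with mouse RC139 left out (adjusted p = 0.00213). *Timp2*, which inhibits MMPs and also forms the complex on MMP14 in which pro-MMP2 is activated, had 64.7 to 87.7 CPM in WT mice and 178, 288, 198 and 151 CPM in RC/RC mice. These groups were separate as well, with a log2 fold change of 1.42 (SE 0.21, adjusted p = 0.00277). *Timp3* went the other way in its mean, with 1109, 1337, 1581 and 1641 CPM in WT mice and 1044, 692, 907 and 1334 CPM in RC/RC mice. The groups overlapped, and the log2 difference of -0.52 did not pass the test (SE 0.22, adjusted p = 0.156). *Timp4* had 115 reads in the 12 mice, 66 of them in mouse RC139, and could not be tested. *Timp1*, *Timp3* and *Timp4* each overlap a synapsin gene on the opposite strand (*Syn1*, *Syn3* and *Syn2*), and whether the counting used strand is not given in the sources used here; *Syn1* held 124 reads beside 1565 for *Timp1*, *Syn3* 1798 beside 312248 for *Timp3*, and *Syn2* 2393 beside 115 for *Timp4*.

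Of the *Mmp* genes, 13 were tested, all 13 had a positive log2 fold change, and 6 were called higher (median of the 13, 1.42). *Mmp2*, the gelatinase that degrades denatured collagen and basement membrane collagen (chromosome 8, 92827328 to 92853417), had 8.04, 5.84, 4.59 and 5.67 CPM in WT mice and 30.3, 56.5, 41.7 and 26.8 CPM in RC/RC mice. The lowest RC/RC value was more than the highest WT value by a wide margin, and the log2 fold change was 2.68 (SE 0.27, adjusted p = 0.000472), 6.40-fold. *Mmp14*, the membrane-type enzyme that activates pro-MMP2, had 19.2, 16.5, 11.3 and 15.4 CPM in WT mice and 53.0, 80.6, 48.8 and 36.9 CPM in RC/RC mice. It too was separate between the groups, by a log2 fold change of 1.81 (SE 0.25, adjusted p = 0.00212). Thus the genes of the enzyme, its activator and the adaptor *Timp2* were each called higher in RC/RC mice.

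*Mmp3*, or stromelysin-1, which cleaves proteoglycans and activates other MMPs, was low in WT mice at 0.191, 0.239, 0.0999 and 1.12 CPM and stood at 5.74, 7.63, 5.13 and 2.71 CPM in RC/RC mice. The groups did not overlap even though WT mouse B6_6 was above the other WT mice, and the log2 fold change was 3.64 (SE 0.64, adjusted p = 0.00653), or 4.85 without mouse B6_6 (adjusted p = 0.0016). *Mmp9*, the second gelatinase, known from neutrophils and macrophages, rose from 0.375 to 0.899 CPM in WT mice to 1.74 to 2.37 CPM in RC/RC mice, a log2 fold change of 1.67 (SE 0.31, adjusted p = 0.00842). *Mmp11*, a stromelysin cleaved to its active form by furin-like convertases, and *Mmp23*, a membrane-anchored MMP, rose by log2 fold changes of 1.42 (SE 0.27, adjusted p = 0.00925) and 0.99 (SE 0.20, adjusted p = 0.0117). *Mmp23* varied little among WT mice, from 5.54 to 6.00 CPM, against 8.93 to 15.8 CPM in RC/RC mice. *Mmp19* had 0.192 to 1.73 CPM in WT and 2.15 to 5.36 CPM in RC/RC mice; with a log2 difference of 2.12 and an SE of 0.62, it did not pass the test (adjusted p = 0.0538). It passed with DESeq2, library size alone, every gene of at least 1 count, 1 fit of all 12 mice, limma and 1 surrogate variable, and was 2.94 without WT mouse B6_6 (adjusted p = 0.0194).

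The other *Mmp* genes tested did not pass by edgeR, with log2 differences that ran from small to large. *Mmp13*, the mouse's main collagenase, had 1.55 to 3.11 CPM in WT and 1.10 to 4.03 CPM in RC/RC mice, and the log2 difference was 0.12 (SE 0.38, adjusted p = 0.864). *Mmp28*, or epilysin, had 2.48 to 5.88 CPM in WT and 2.86 to 8.36 CPM in RC/RC mice, with a difference of 0.21 (SE 0.38, adjusted p = 0.748). *Mmp15*, a membrane-type enzyme of epithelia, had 5.06 to 5.98 CPM in WT and 6.23 to 8.89 CPM in RC/RC mice, groups that did not overlap, with a log2 difference of 0.44 (SE 0.16, adjusted p = 0.115). *Mmp12*, the macrophage elastase, *Mmp17* and *Mmp25*, which are both anchored to the membrane by a lipid, had log2 differences of 0.74, 0.97 and 1.50 (adjusted p = 0.128, 0.0553 and 0.092). The RC/RC mice all lay above the WT mice for *Mmp17*, which DESeq2, library size alone as scaling and 1 fit of all 12 mice called higher, and *Mmp25* was called higher without mouse RC143.

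Among the 14 *Adamts* genes tested, 4 were called higher and the median log2 fold change was 0.60. *Adamts2*, the enzyme that removes the amino-terminal propeptide of fibrillar procollagens (chromosome 11, 50602084 to 50807573), had 5.17, 3.49, 6.64 and 5.58 CPM in WT mice and 28.5, 49.4, 25.9 and 23.4 CPM in RC/RC mice. Its groups were far apart, and the log2 fold change was 2.60 (SE 0.29, adjusted p = 0.000742), 6.06-fold. The other procollagen N-proteinases did not share this: *Adamts3* had a log2 difference of 0.65 (adjusted p = 0.344) and *Adamts14* one of -0.58 (adjusted p = 0.235). *Adamts12* had 0.478 to 1.69 CPM in WT and 2.32 to 4.26 CPM in RC/RC mice (log2 fold change 1.72, SE 0.40, adjusted p = 0.0215), and *Adamts16*, a gene studied in kidney and blood pressure, 3.30 to 4.99 and 6.15 to 10.7 CPM (0.92, SE 0.23, adjusted p = 0.0303). *Adamts16* was not called in 1 fit of all 12 mice.

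*Adamts1*, a versican-cleaving enzyme, had the highest mean FPKM of the proteases in WT and RC/RC:Casp1KO mice, whereas *Mmp14* had it in RC/RC mice. *Adamts1* stood at 45.2, 55.0, 65.4 and 55.0 CPM in WT mice and 84.0, 89.4, 69.9 and 69.5 CPM in RC/RC mice. The groups were separate but close, with a log2 fold change of 0.50 (SE 0.14, adjusted p = 0.0484). The call was lost with RLE size factors, with at least 10 counts in every mouse and in 1 fit of all 12 mice. The remaining versican- and aggrecan-cleaving enzymes did not pass: *Adamts4* had a log2 difference of 0.56 (adjusted p = 0.271), *Adamts5* one of 0.29 (adjusted p = 0.344) and *Adamts9* one of -0.05 (adjusted p = 0.861). *Adamts9* was nearly level, at 17.98 to 22.2 CPM in WT and 13.6 to 22.7 CPM in RC/RC mice, and its sign changed with the scaling used. *Adamts10*, a protein that binds fibrillin microfibrils, had 15.03 to 24.5 CPM in WT and 24.1 to 48.0 CPM in RC/RC mice, which overlapped, and a log2 difference of 0.78 (SE 0.24, adjusted p = 0.061). It passed with DESeq2, every gene of at least 1 count, 1 fit of all 12 mice and 1 surrogate variable, and without mouse RC143 (0.92, adjusted p = 0.029). *Adamts15*, which also cleaves aggrecan and versican, spread widely in WT mice, with 10.5, 8.14, 22.0 and 34.1 CPM, against 9.50 to 13.4 CPM in RC/RC mice (log2 difference -0.72, SE 0.40, adjusted p = 0.268).

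**Figure D2:**
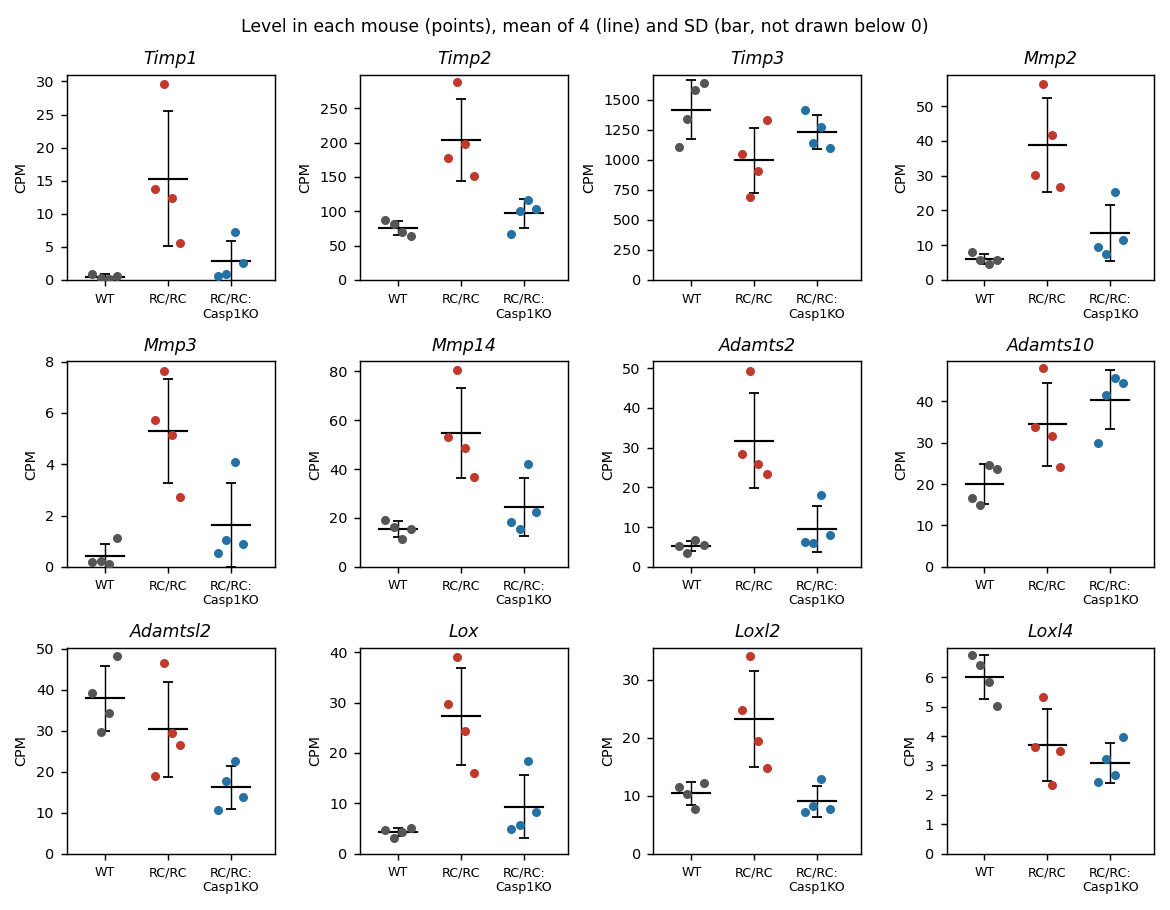
CPM in each of the 12 mice for 12 members, 1 panel each with its own linear axis from 0, with the mean and SD of the 4 mice of a group. The RC/RC mice lie above all WT mice for *Timp1*, *Timp2*, *Mmp2*, *Mmp3*, *Mmp14*, *Adamts2*, *Lox* and *Loxl2*, and mouse Del3_70 is the highest of its group in these panels.

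Of the 5 *Adamtsl* genes, 2 were called higher and 4 had a positive log2 fold change (median 1.10). *Adamtsl5* had 2.48 to 3.16 CPM in WT and 7.13, 16.3, 8.20 and 6.74 CPM in RC/RC mice, and *Adamtsl1* had 4.68 to 6.69 and 10.7, 16.3, 10.2 and 9.71 CPM. In both genes the groups were separate and mouse RC139 was well above the other RC/RC mice; the log2 fold changes were 1.77 (SE 0.31, adjusted p = 0.00601) and 1.10 (SE 0.21, adjusted p = 0.0103). Without mouse RC139 they were 1.36 (adjusted p = 0.00407) and 0.88 (adjusted p = 0.0183). *Adamtsl2*, which binds fibrillin and a latent TGF-β binding protein, had 29.7 to 48.2 CPM in WT and 18.9 to 46.5 CPM in RC/RC mice, with a log2 difference of -0.33 (SE 0.26, adjusted p = 0.431). *Adamtsl3* and *Adamtsl4* had log2 differences of 1.18 and 0.73 that did not pass (adjusted p = 0.0516 and 0.105), although the RC/RC mice all lay above the WT mice for *Adamtsl3*, and DESeq2, library size alone and 1 surrogate variable called it higher.

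Of the 5 lysyl oxidases, 4 were called higher and *Loxl4* was not. *Lox*, the founding member, had 4.69, 3.21, 4.24 and 5.15 CPM in WT mice and 29.8, 39.0, 24.3 and 16.0 CPM in RC/RC mice. The groups were well separated, by a log2 fold change of 2.65 (SE 0.28, adjusted p = 0.000603), 6.26-fold. *Loxl2*, which acts on basement membrane collagen, had 7.74 to 12.2 CPM in WT and 24.8, 34.1, 19.4 and 14.8 CPM in RC/RC mice (log2 fold change 1.15, SE 0.25, adjusted p = 0.0173). *Loxl1*, linked to elastic fibres and the most abundant of the 5 per kilobase, had 21.6 to 39.2 CPM in WT and 45.7, 99.3, 57.4 and 41.1 CPM in RC/RC mice (1.13, SE 0.29, adjusted p = 0.0348). *Loxl3* rose by 0.97 (SE 0.25, adjusted p = 0.0338), from 2.97 to 5.45 CPM in WT to 6.31 to 11.5 CPM in RC/RC mice. With 1525 reads in all mice, *Loxl3* overlaps *Htra2*, with 4653, on the opposite strand. *Loxl4* had 6.75, 6.41, 5.84 and 5.01 CPM in WT mice and 3.64, 5.31, 2.32 and 3.48 CPM in RC/RC mice. Only mouse RC139 overlapped the WT mice, and the log2 difference of -0.71 (SE 0.25, adjusted p = 0.0988) became -0.96 (adjusted p = 0.0322) without it.

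With mouse RC139 left out, 13 members were called higher in RC/RC, and those 13 also passed when any other single mouse was left out. Of all genes, 1487 were called higher with all mice and 997 without mouse RC139. The calls of *Adamts1*, *Adamts12*, *Adamts16*, *Loxl1* and *Loxl3* were lost without mouse RC139, with log2 differences of 0.40, 1.53, 0.85, 0.76 and 0.74 (adjusted p = 0.137, 0.0648, 0.079, 0.0648 and 0.0902). These 5 were each also lost without at least 1 other mouse: *Adamts1* without mice B6_2, B6_3, B6_6, RC105 or RC140, *Adamts12* without mice B6_3 or RC105, *Adamts16* without mice B6_2, B6_3, B6_6 or RC105, and *Loxl1* and *Loxl3* without mice B6_3, B6_4, B6_6 or RC140.

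**Figure D3:**
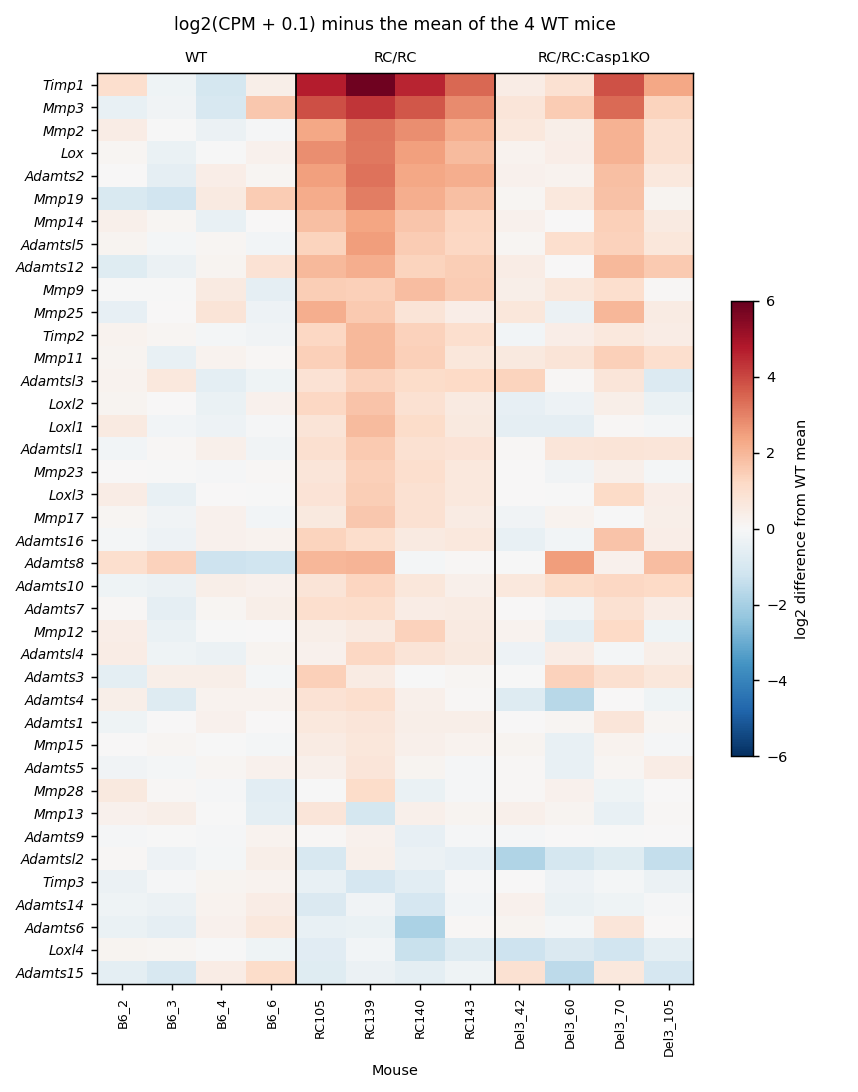
Colour gives log2(CPM + 0.1) in each mouse minus the mean of the 4 WT mice for the 40 members tested against WT, in the order of their log2 fold change in RC/RC against WT, with 1 column for each mouse. The 4 RC/RC columns are above the WT mean for *Timp1*, *Mmp2*, *Mmp3*, *Adamts2* and *Lox*, and among the RC/RC:Casp1KO columns mouse Del3_70 is the one most like them.

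The comparison of RC/RC:Casp1KO with RC/RC mice asked what the loss of *Casp1* changed in the cystic kidney. None of the 41 members tested was called higher, beside 7.23% of the 15428 genes tested; at an unadjusted p under 0.05 there were 0 as well, and DESeq2 called 0. There were 9 members called lower (22% of 41), beside 4.41% of all genes. The median log2 difference was -0.52, against -0.03 for all genes, and 33 of the 41 were negative. The RC/RC:Casp1KO mice all lay below the RC/RC mice in 12 members, beside 8.81% of all genes, and above them in 0, beside 11.6%. The 4 RC/RC mice are the same in this comparison and the one above, so the 2 sets of values are not independent and are only set side by side.

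The genes called lower were *Adamts2*, *Mmp19*, *Lox*, *Mmp2*, *Loxl1*, *Loxl2*, *Mmp9*, *Timp2* and *Mmp23*. *Adamts2* had 6.20, 5.96, 17.99 and 7.97 CPM in RC/RC:Casp1KO mice, all below the lowest RC/RC mouse at 23.4 CPM. It fell by 1.74 on the log2 scale (SE 0.39, adjusted p = 0.0259), and was 6.06-fold higher in RC/RC than in WT. *Mmp2* had 9.36, 7.58, 25.3 and 11.4 CPM, of which the value of mouse Del3_70 came close to the lowest RC/RC mouse at 26.8 CPM, and it fell by 1.53 (SE 0.39, adjusted p = 0.0372). *Lox* had 4.93, 5.62, 18.4 and 8.25 CPM; mouse Del3_70 overlapped the lowest RC/RC mouse at 16.0 CPM, and the fall was 1.54 (SE 0.42, adjusted p = 0.0462).

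Among the other crosslinking enzymes, *Loxl1* and *Loxl2* were called lower. *Loxl1* had 18.7, 18.4, 28.3 and 25.2 CPM and fell by 1.43 (SE 0.28, adjusted p = 0.0185). *Loxl2* had 7.26, 8.23, 12.9 and 7.68 CPM and fell by 1.36 (SE 0.27, adjusted p = 0.0189). No RC/RC:Casp1KO mouse reached the RC/RC range in either gene, mouse Del3_70 included. *Timp2* had 67.3, 101, 117 and 104 CPM and fell by 1.07 (SE 0.23, adjusted p = 0.0233), also without overlap. *Mmp23* at 4.96 to 7.22 CPM, *Mmp9* at 0.617 to 1.27 CPM and *Mmp19* at 0.609 to 2.09 CPM fell by 0.98, 1.08 and 1.65 (adjusted p = 0.0254, 0.0409 and 0.0467), each below all RC/RC mice. *Mmp19*, with 437 reads in the 12 mice, overlaps *Tmem198b*, with 1443, on the opposite strand.

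The members with the largest increases in RC/RC over WT included some that did not pass here. *Timp1* had a log2 difference of -2.43 (SE 0.75, adjusted p = 0.063), and mouse Del3_70 at 7.27 CPM was above the lowest RC/RC mouse at 5.54 CPM. *Mmp3* had 0.554, 1.04, 4.09 and 0.901 CPM and a difference of -1.67 (SE 0.59, adjusted p = 0.0884). *Mmp14* had 18.2, 15.6, 42 and 22.4 CPM and a difference of -1.16 (SE 0.33, adjusted p = 0.0517). In all 3 genes mouse Del3_70 was the only RC/RC:Casp1KO mouse within the RC/RC range. Without mouse Del3_70 these genes passed, with log2 differences of -3.50, -2.64 and -1.55 (adjusted p = 0.0203, 0.0109 and 0.0151). With all mice kept, DESeq2 called the 3 genes lower (adjusted p = 0.03, 0.0213 and 0.0061), 1 fit of all 12 mice called *Timp1* and *Mmp14*, and *Mmp14* also passed with every gene of at least 1 count and with 1 surrogate variable. *Timp1* and *Mmp14* passed without mouse RC143 as well. *Adamts4*, *Adamtsl2* and *Mmp17* had differences of -1.20, -0.91 and -0.87 (adjusted p = 0.0707, 0.0762 and 0.0735) by edgeR, whereas DESeq2 called each of them lower. *Mmp17* was also called with 1 surrogate variable, and *Adamtsl2* and *Mmp17* passed without mouse RC105. The RC/RC:Casp1KO mice all lay below the RC/RC mice for *Adamts4* and *Mmp17*. *Timp3* had a difference of 0.31 (SE 0.21, adjusted p = 0.347), with 1415, 1144, 1275 and 1097 CPM in the RC/RC:Casp1KO mice.

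The number of members called lower in RC/RC:Casp1KO depended on the scaling, the test and single mice. With library size alone as scaling, *Lox*, *Mmp2*, *Mmp9*, *Mmp19* and *Timp2* were not called. With limma, *Lox*, *Loxl2*, *Mmp19* and *Timp2* were not called. *Mmp9* was not called with every gene of at least 1 count, nor *Mmp19* in 1 fit of all 12 mice. The number was 12 without mouse Del3_70, and 10 without mice RC105 or RC143. It was 3 (*Loxl1*, *Loxl2* and *Timp2*) without mouse RC139 or without mouse Del3_42, 1 (*Loxl2*) without mouse RC140, and 0 without mice Del3_60 or Del3_105. The lower calls over all genes moved as well, from 681 with all mice to 688 without Del3_70, 1300 without RC105 and 899 without RC143. They were 136 without RC139, 131 without Del3_42, 65 without RC140, 79 without Del3_60 and 58 without Del3_105. The 6 calls lost without RC139 were those of *Adamts2*, *Mmp2*, *Lox*, *Mmp19*, *Mmp9* and *Mmp23*, with log2 differences of -1.42, -1.27, -1.30, -1.30, -1.10 and -0.76 (adjusted p = 0.0625, 0.096, 0.124, 0.127, 0.082 and 0.0522). With mice RC139 and Del3_70 both left out, an alternative chosen after seeing the data, 11 members were called lower, 8 of them among the 9 named above. *Mmp9* was the 1 not shared (adjusted p = 0.0578), and *Timp1*, *Mmp3* and *Mmp14* were added, with log2 differences of -2.92, -2.37 and -1.25 (adjusted p = 0.0294, 0.02 and 0.0169).

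The comparison of RC/RC:Casp1KO with WT mice asked how far the double mutant kidney still differed from a healthy one. Of 40 members tested, 1 was called higher (2.5%, beside 1.13% of the 15346 genes tested) and 2 were called lower (5%, beside 0.893%). The groups were separate in 2 members in each direction, beside 7.45% of all genes for higher and 6.31% for lower, and the median log2 difference was 0.35, against 0.01 for all genes. The member called higher was *Adamts10* (chromosome 17, 33524204 to 33553782), with 30.02, 41.5, 45.7 and 44.4 CPM in RC/RC:Casp1KO mice, all above the WT maximum of 24.5 CPM. Its log2 fold change was 1.02 (SE 0.20, adjusted p = 0.0409), 2.03-fold.

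The members called lower were *Adamtsl2* and *Loxl4*. *Adamtsl2* (chromosome 2, 27079379 to 27108981) had 10.6, 17.7, 22.6 and 13.9 CPM in RC/RC:Casp1KO mice against 39.3, 29.7, 34.4 and 48.2 CPM in WT mice. It was 2.33-fold lower without overlap, a log2 change of -1.22 (SE 0.24, adjusted p = 0.0423). *Loxl4* (chromosome 19, 42593982 to 42612813) had 2.44, 3.23, 2.68 and 3.98 CPM against 5.01 to 6.75 CPM, a log2 change of -0.95 (SE 0.20, adjusted p = 0.0485), also without overlap. None of these 3 calls passed without each of the mice in turn; without mouse Del3_70 only *Adamtsl2* passed (-1.43, adjusted p = 0.0292), and *Adamts10* and *Loxl4* had differences of 0.95 and -0.89 (adjusted p = 0.101 and 0.123).

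The genes with the largest log2 fold changes of RC/RC over WT were not called by edgeR between RC/RC:Casp1KO and WT mice, whereas DESeq2 called *Timp1* (adjusted p = 0.0277) and *Mmp2* (adjusted p = 0.0323) higher. By edgeR, *Timp1* had a log2 difference of 2.49 (SE 0.84, adjusted p = 0.149), *Mmp3* of 1.98 (SE 0.84, adjusted p = 0.215), *Mmp2* of 1.16 (SE 0.38, adjusted p = 0.139), *Lox* of 1.12 (SE 0.41, adjusted p = 0.172) and *Adamts2* of 0.88 (SE 0.38, adjusted p = 0.223). Without mouse Del3_70 these differences were smaller, at 1.41, 1.00, 0.65, 0.54 and 0.36, and none passed. Without WT mouse B6_6 that of *Mmp3* was 3.19 (adjusted p = 0.128). *Mmp11*, at 8.70 to 15.7 CPM against 4.26 to 6.74 CPM in WT mice, was separate between the groups and had a difference of 0.97 (SE 0.22, adjusted p = 0.0654). By contrast *Mmp23* (0.03, SE 0.16), *Loxl2* (-0.20, adjusted p = 0.622) and *Loxl1* (-0.28, adjusted p = 0.457) lay near their WT levels in the mean.

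**Figure D4:**
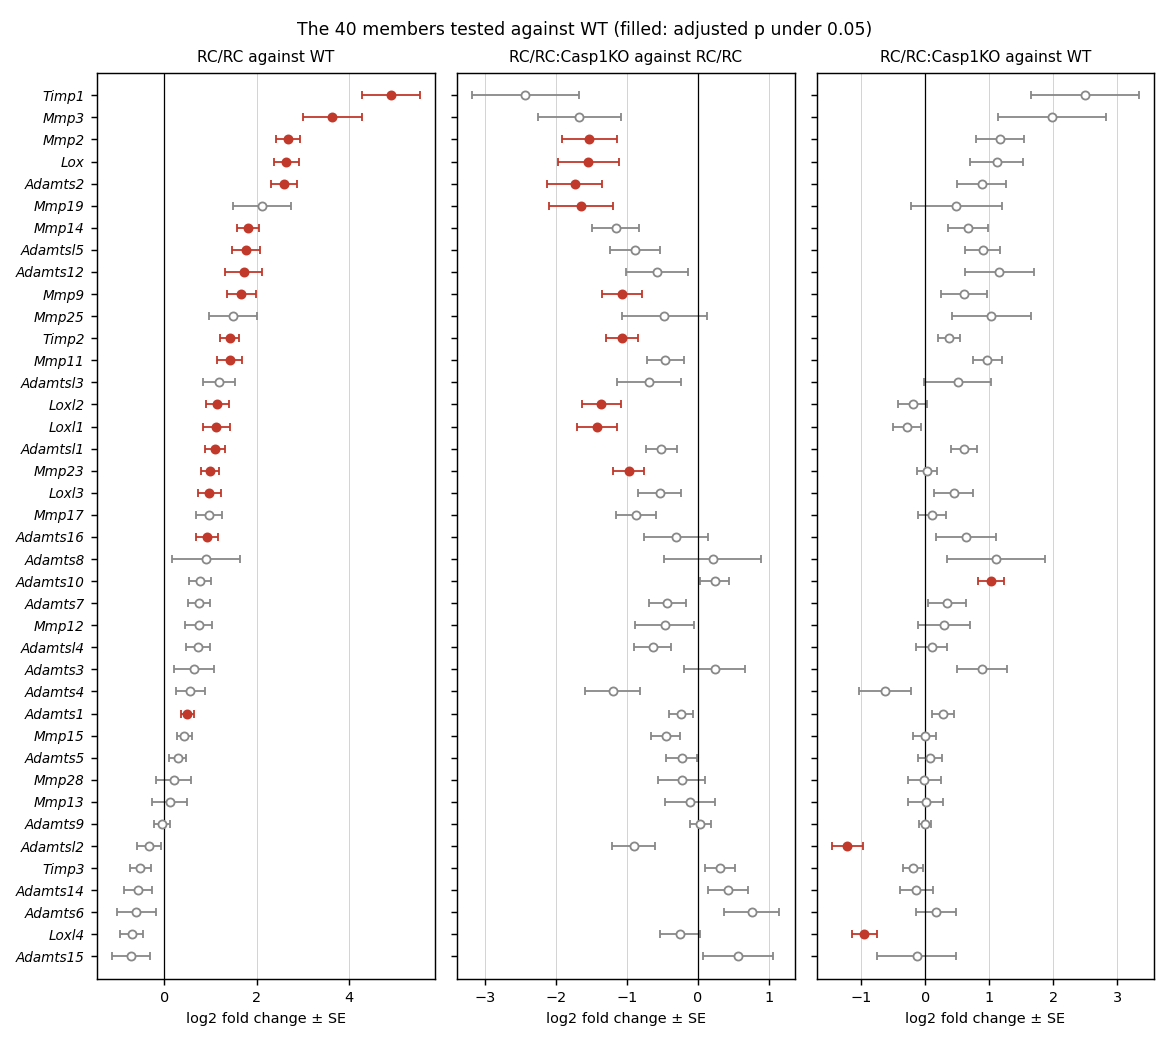
Log2 fold change (horizontal axis) with its SE for the 40 members tested against WT, in 3 panels for the 3 comparisons, with filled points for an adjusted p under 0.05. The 18 filled points of RC/RC against WT all lie above 0, the 9 of RC/RC:Casp1KO against RC/RC all lie below 0, and RC/RC:Casp1KO against WT has 3.

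Some members varied more within a group than between groups. *Adamts15* had 30.5, 5.23, 24.4 and 7.87 CPM in RC/RC:Casp1KO mice Del3_42, Del3_60, Del3_70 and Del3_105, and *Adamts8*, a close relative, had 1.27, 7.93, 1.59 and 4.89 CPM in the same mice. The 2 mice high for *Adamts15* were the 2 low for *Adamts8*. In WT mice B6_2, B6_3, B6_4 and B6_6 *Adamts8* had 2.73, 3.59, 0.499 and 0.515 CPM, so that the 2 mice low for *Adamts15* were again high for *Adamts8*. The RC/RC mice did not show this: RC105, RC139, RC140 and RC143 had 9.50, 12.4, 10.5 and 13.4 CPM of *Adamts15* and 5.47, 5.68, 1.19 and 1.37 CPM of *Adamts8*, with RC139 among the higher mice and RC140 among the lower mice for both genes. Neither gene was called in any comparison by edgeR with the planned design, and the columns do not give the sex of a mouse. *Kap*, an androgen-responsive gene of the proximal tubule, had 2348, 6082, 18236 and 17560 CPM in the WT mice, 4963, 2978, 14518 and 14332 CPM in the RC/RC mice and 18037, 6945, 12815 and 3772 CPM in the RC/RC:Casp1KO mice. In each group the 2 mice lowest for *Kap* were the 2 highest for *Adamts8*. The part of sex in these levels was not tested.

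A run of 10 *Mmp* genes lies side by side on chromosome 9, from *Mmp13* to *Mmp7* (chr9:7272514-7699585, 427.1 kb), and the kidney used few of them. Of 2170 reads in the 12 mice, 744 fell in *Mmp12*, 664 in *Mmp13*, 632 in *Mmp3* and 103 in *Mmp7*, whereas *Mmp8* had 20, *Mmp10* 3, *Mmp20* and *Mmp27* 2 each, and *Mmp1a* and *Mmp1b* 0. The promoters of these neighbours are known for binding sites of AP-1, the Fos and Jun dimer that responds to growth factors and cytokines. RefSeq promoters (GRCm38.p6, 250 bases before to 50 after each start) were searched for TGANTCA, a pattern wider than the AP-1 site, which has C or G in the middle; it reads the same on both strands. It occurred in 2565 of 32851 promoters (7.81%). Of the members on chromosome 9, inside or outside the run, 10 had a RefSeq promoter, and 8 of these held the motif, all of them in the run. The motif occurred in 0 of the 27 members with a promoter on other chromosomes. No match was found for *Mmp8* and *Mmp27*, and whether their promoters were among those searched is not given here. With C or G in the middle it occurred in 5.2% of all promoters and in 7 of the 10 members on chromosome 9 with a promoter, since the match in *Mmp20* is TGAATCA. The sequences are shown because genes with no reads and expressed ones share the motif, while the bases around it mostly differ; each is 30 bases, 5′ to 3′ on the strand of its gene, with the match in capitals.
Mmp13, chr9:7272468-7272497, + strand: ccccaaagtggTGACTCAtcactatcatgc
Mmp12, chr9:7347319-7347348, + strand: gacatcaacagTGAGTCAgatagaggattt
Mmp1b, chr9:7388101-7388130, - strand: gttacaaagccTGAGTCAtatagcctctgg
Mmp3, chr9:7445765-7445794, + strand: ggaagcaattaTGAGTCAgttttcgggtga
Mmp1a, chr9:7464057-7464086, + strand: gttgtcaaccaTGAGTCAcatagcctctgg
Mmp10, chr9:7502268-7502297, + strand: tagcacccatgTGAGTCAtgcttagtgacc
Mmp20, chr9:7628125-7628154, + strand: catttgagacaTGAATCAtcacttacaggg
Mmp7, chr9:7692016-7692045, + strand: aagtgtgcaaaTGAGTCAcctatttccaca
The match begins 35 bases before the start in *Mmp13*, 44 in *Mmp12*, 46 in *Mmp3*, 63 in *Mmp7* and *Mmp10*, 73 in *Mmp1a*, 93 in *Mmp1b* and 95 in *Mmp20*. For *Mmp12* the RefSeq start lies inside the gene by its deposited coordinates, which begin at 7344381, and so does the match.

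Of the genes with the motif, *Mmp3* was called higher in RC/RC over WT, *Mmp12* and *Mmp13* had log2 differences of 0.74 (adjusted p = 0.128) and 0.12 (adjusted p = 0.864), and *Mmp1a* and *Mmp1b* had no read in any mouse. A match in a promoter is a description of the sequence and does not show that a factor was bound. *Mmp7*, or matrilysin, made by injured tubule epithelium, had 1, 1, 0 and 1 reads in WT mice, at the floor, 16, 26, 13 and 2 reads in RC/RC mice, and 3, 3, 30 and 7 reads in RC/RC:Casp1KO mice. With the planned filter it was tested between the mutant groups alone, where the log2 difference was -0.46 (SE 0.85, adjusted p = 0.746). Under other settings it was also tested for RC/RC against WT, and it was called higher with every gene of at least 1 count, in 1 fit of all 12 mice, and without mice B6_2, B6_3, B6_4 or RC143.

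The other 15 members had too few reads for any of the 3 tests. Besides *Timp4* and the low genes of the chromosome 9 run (*Mmp1a*, *Mmp1b*, *Mmp8*, *Mmp10*, *Mmp20* and *Mmp27*), they were *Mmp16* with 92 reads in the 12 mice, *Mmp21* with 18, *Mmp24* with 26, *Adamts13* with 99, *Adamts17* with 65, *Adamts18* with 6, *Adamts20* with 43 and *Adamts19* with 0. *Adamts13* encodes the protease that trims von Willebrand factor and is known mainly from liver. *Mmp8*, the neutrophil collagenase, had at most 6 reads in a mouse. *Adamts6* and *Adamts7*, tested but not called by edgeR, had log2 differences of -0.61 and 0.75 between RC/RC and WT mice (adjusted p = 0.366 and 0.07). The RC/RC mice all lay above the WT mice for *Adamts7*, and DESeq2 called it higher. *Adamts7*, with 1724 reads in the 12 mice, overlaps *Tbc1d2b*, with 8612, on the opposite strand.

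Proteases and inhibitors that act beside the set were read from fixed lists, of which the plasminogen system comes first because plasmin activates several pro-MMPs. *Serpine2*, a serpin that inhibits plasminogen activators, rose by 1.91 in RC/RC over WT (adjusted p = 0.00129) and fell by 1.18 in RC/RC:Casp1KO over RC/RC (adjusted p = 0.0385). *Plaur*, the urokinase receptor, rose by 0.77 (adjusted p = 0.0413) and fell by 0.84 (adjusted p = 0.03), and *Plgrkt*, a plasminogen receptor, was higher in RC/RC:Casp1KO over RC/RC by 0.51 (adjusted p = 0.0243). *Plau*, urokinase itself, was abundant at means of 409, 513 and 492 CPM in WT, RC/RC and RC/RC:Casp1KO mice, with log2 differences of 0.32 (adjusted p = 0.435) and -0.05 (adjusted p = 0.906).

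Of 11 regulators of MMPs outside the *Timp* family, 4 were called higher in RC/RC over WT, beside 9.76% of all genes. None was called in RC/RC:Casp1KO over RC/RC, beside 7.23% of all genes for higher and 4.41% for lower. The 4 included the thrombospondins *Thbs2* (2.42, adjusted p = 0.00166) and *Thbs1* (1.18, adjusted p = 0.00472) and *Reck*, a membrane-bound inhibitor (0.78, adjusted p = 0.0373). *A2m*, the plasma protease trap, had a difference of -0.57 (adjusted p = 0.538). Of the cathepsins, 3 of 8 rose in RC/RC, beside 9.76% of all genes, and 2 fell in RC/RC:Casp1KO over RC/RC, beside 4.41%. *Ctsk*, a collagen-degrading lysosomal protease, rose by 2.08 (adjusted p = 0.00209) and fell by 1.44 (adjusted p = 0.0179). *Ctss* of antigen-presenting cells rose by 1.77 (adjusted p = 0.00041), and *Ctsd* fell by 0.46 (adjusted p = 0.0413).

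*Adam* proteases were called higher in RC/RC in 3 of 9 genes, beside 9.76% of all genes. These were *Adam8* (1.85, adjusted p = 0.0158), *Adam23* (1.51, adjusted p = 0.0499) and *Adam19* (1.35, adjusted p = 0.0104). Of 6 genes of procollagen processing, only *Bmp1* was called higher (1.01, adjusted p = 0.0179), beside 9.76% of all genes. *Bmp1* removes the carboxy-terminal propeptide and also activates pro-lysyl oxidase. The meprins *Mep1a* and *Mep1b* of the tubular brush border had differences of -0.38 and 0.02 (adjusted p = 0.382 and 0.958). Of 4 proprotein convertases, 2 were called lower in RC/RC, beside 3.18% of all genes: *Pcsk5* fell by 0.78 (adjusted p = 0.0221) and *Pcsk7* by 0.35 (adjusted p = 0.0484). *Furin* and *Pcsk6* had differences of -0.26 and -0.36 that did not pass (adjusted p = 0.246 and 0.392), and *Pcsk5* was higher in RC/RC:Casp1KO over RC/RC by 0.83 (adjusted p = 0.0146). Of 11 genes of collagen hydroxylation and crosslinking, 3 rose in RC/RC, beside 9.76% of all genes, and 3 fell in RC/RC:Casp1KO over RC/RC, beside 4.41%. *Lum*, a collagen-binding proteoglycan that is also in the fibroblast list, rose by 2.06 (adjusted p = 0.0202) and fell by 1.74 (adjusted p = 0.0344), and *Serpinh1*, the collagen chaperone, rose by 1.02 (adjusted p = 0.0471) and fell by 1.10 (adjusted p = 0.0318). The other gene was *Fmod*, fibromodulin, which rose by 1.29 and fell by 0.72 (adjusted p = 0.0396 for the fall). Of 8 serine proteases, 1 was called higher in RC/RC, beside 9.76% of all genes, and 1 lower in RC/RC:Casp1KO over RC/RC, beside 4.41%. *Htra3* rose by 3.77 in RC/RC (adjusted p = 0.00141) and was the 1 gene of these lists called between RC/RC:Casp1KO and WT mice (2.43, adjusted p = 0.0235). *Prss23* fell by 0.68 in RC/RC:Casp1KO over RC/RC (adjusted p = 0.035).

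Markers of several cell types moved with the set. Their counts stand beside 9.76% of all genes called higher and 3.18% lower in RC/RC over WT. For RC/RC:Casp1KO over RC/RC the shares were 7.23% higher and 4.41% lower. All 7 fibroblast markers were called higher in RC/RC over WT and 5 were lower in RC/RC:Casp1KO over RC/RC, with 1 called between RC/RC:Casp1KO and WT. The summed level of the fibroblast markers was 267 ± 40.1 CPM (SD, n = 4) in WT, 1240 ± 456 CPM in RC/RC and 453 ± 188 CPM in RC/RC:Casp1KO mice, and *Col3a1* was the most abundant. Mouse RC139 at 1885 CPM and mouse Del3_70 at 714 CPM were the highest of their groups. Of the smooth muscle and pericyte markers, 2 of 5 were higher in RC/RC and 3 lower in RC/RC:Casp1KO over RC/RC, *Rgs5* being the most abundant, and their sum ran from 168 to 221 CPM in WT, 259 to 675 CPM in RC/RC and 163 to 169 CPM in RC/RC:Casp1KO mice, highest in mouse RC139.

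Macrophage and dendritic markers were higher in RC/RC in 6 of 7 genes and 1 was lower in RC/RC:Casp1KO over RC/RC. They summed to 123 to 146 CPM in WT, 298 to 418 CPM in RC/RC and 171, 228, 369 and 213 CPM in RC/RC:Casp1KO mice, with *Csf1r* the most abundant. Injured tubule markers, led by *Lcn2*, were higher in RC/RC in 3 of 4 genes and 1 was lower in RC/RC:Casp1KO over RC/RC; they summed to 18.7 to 27.9, 156 to 254 and 34.2, 38.0, 166 and 53.0 CPM. Mouse Del3_70 was again the RC/RC:Casp1KO mouse within the RC/RC range. T and B cell markers were higher in RC/RC in 6 of 7 genes, at sums of only 4.85, 15.8 and 11.4 CPM on average. In RC/RC:Casp1KO over RC/RC, 0 of these 7 were called in either direction. Between RC/RC:Casp1KO and WT mice, 1 of 6 tested was called higher, beside 1.13% of all genes. Neutrophil genes were not called in any comparison (0 of 3 tested for RC/RC against WT), and *Ly6g*, *Mpo* and *Elane* were at the floor. No endothelial or collecting duct marker was called, and 1 of 6 proximal tubule markers, 1 of 3 thick ascending limb and distal tubule markers and 1 of 3 podocyte markers were lower in RC/RC over WT. In RC/RC:Casp1KO over RC/RC, 1 proximal tubule and 1 thick ascending limb and distal tubule marker were higher. The part of these cell types in the levels of the matrix enzymes was not tested.

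**Figure D5:**
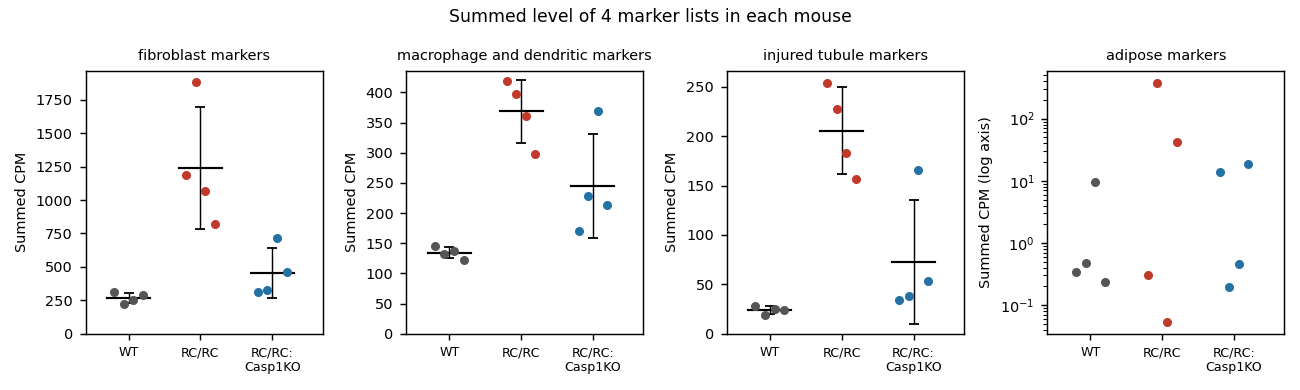
Summed CPM of the fibroblast, macrophage and dendritic, injured tubule and adipose markers in each of the 12 mice, with the mean and SD of each group in the first 3 panels and a log axis for adipose. Mouse RC139 stands out in the fibroblast (1885 CPM) and adipose (381 CPM) panels, and mouse Del3_70 in the fibroblast, macrophage and injured tubule panels.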

How the data were processed

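Poly(A) libraries from kidney RNA of 12 mice were sequenced at Novogene, and the submitters' processing notes name CASAVA 1.8, STAR and the mm10 genome. The counting tool, annotation and use of strand are not given in the sources used here. The authors deposited raw read counts per gene, which were used here, and also FPKM, group means, fold changes and p-values, which were not used. Counts were tested in R 4.3.3 with edgeR 4.0.16 (TMM, filterByExpr, quasi-likelihood F test, only the 2 groups compared in each fit), with Benjamini-Hochberg adjustment over all genes and a threshold of 0.05; the SE was taken from the log2 fold change and the F statistic. FPKM in the text were computed from the counts, the TMM factors and the deposited gene lengths. Alternatives used DESeq2 1.42.0, limma 3.58.1 on log2(FPKM + 1), sva 3.50.0, other scalings and filters, and leaving out mice. The fit was tested on simulated counts with 200 changed genes. Members called in any comparison, the *Timp* and lysyl oxidase genes and the 3 most abundant uncalled *Mmp* and *Adamts* genes are given in detail. The members, gene lists and tests were chosen with earlier results of these data known. Each library came from a separate mouse. Promoters are from RefSeq GRCm38.p6, the build of the table; the symbols of all 56 members matched. Zinc-binding stretches of the proteins were planned but are not analysed here. The counts of the plasminogen list and 1 of its genes are not reported here.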

Additional observations from a re-analysis of the deposited data

Results flagged for a closer look

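A lone value, far from the other 3 mice of its group, was found in 8 of 90 groups of 4 mice examined. The genes were measured in the same mice, so these groups are not independent and the count is not set against a chance rate. Mouse Del3_70 was the one above for *Adamts1* (90.5 CPM, others 55.8 to 60.2 CPM), *Adamts2* (17.99 CPM, others 5.96 to 7.97 CPM) and *Mmp3* (4.09 CPM, others 0.554 to 1.04 CPM). Mouse RC139 was above for *Adamtsl1* (16.3 CPM, others 9.71 to 10.7 CPM), *Adamtsl5* (16.3 CPM, others 6.74 to 8.20 CPM) and *Timp4* (3.47 CPM, others 0.0775 to 0.601 CPM). Mouse Del3_42 was below for *Adamtsl1* (5.71 CPM, others 8.85 to 9.18 CPM), and WT mouse B6_6 was above for *Mmp3* (1.12 CPM, others 0.0999 to 0.239 CPM).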

How the results depend on the processing

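Of 30 calls named for a member in a comparison, 0 changed sign in any setting, 19 passed the threshold in every planned setting that kept all mice and gave a value, and 13, all for RC/RC against WT, passed without each mouse. For RC/RC against WT, 14 to 23 members were called higher in the other settings and 13 to 22 without 1 mouse; 1 was called lower (*Loxl4*) by DESeq2 and with 1 surrogate variable, and 0 to 1 without 1 mouse. For RC/RC:Casp1KO against RC/RC, DESeq2 called 15 lower, library size alone as scaling 4, limma 5, both apart-standing mice left out (chosen after seeing the data) 11, and leaving out 1 mouse 0 to 12. For RC/RC:Casp1KO against WT, DESeq2 called 5 higher (*Adamts10*, *Adamtsl5*, *Mmp2*, *Mmp11* and *Timp1*), 1 surrogate variable 3, and at least 10 counts in every mouse 0, with 0 to 3 without 1 mouse; lower calls were 0 with library size alone, with limma or with at least 10 counts in every mouse, 1 with every gene of at least 1 count or with 1 fit of all 12 mice, and 0 to 1 without 1 mouse. The cause of these shifts was not tested. Over all genes, DESeq2 called 1857 higher and 1043 lower for RC/RC against WT, 1748 and 1459 for RC/RC:Casp1KO against RC/RC, and 736 and 630 for RC/RC:Casp1KO against WT. For RC/RC:Casp1KO against RC/RC, edgeR called 681 of all genes lower, library size alone 179, limma 216, both mice left out 375, and leaving out 1 mouse 58 to 1300. Leaving out 1 mouse gave 954 to 1786 higher calls for RC/RC against WT. For RC/RC:Casp1KO against WT it gave 57 to 305 higher and 49 to 242 lower calls. Library size alone moved the median of all genes by 0.13 in RC/RC:Casp1KO against WT, and raised the share of calls that were higher from 75.4% to 86.1%, 62.1% to 82% and 55.9% to 79.8% in the 3 comparisons.

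Some uncalled members changed sign. For RC/RC against WT, *Adamts9* was at 0.055 with library size alone and 0.023 with limma, and without 1 mouse it ran from -0.19 to 0.074, *Mmp13* from -0.16 to 0.34 and *Mmp28* from -0.26 to 0.44. For RC/RC:Casp1KO against RC/RC, *Loxl4* was at 0.078 and *Mmp28* at 0.34 with both mice left out, and without 1 mouse *Adamts9* ran from -0.094 to 0.17, *Mmp13* from -0.35 to 0.12 and *Mmp28* from -0.41 to 0.24. For RC/RC:Casp1KO against WT with library size alone, limma and at least 10 counts in every mouse, *Adamts9* was at 0.13, 0.090 and 0.0096, *Mmp15* at 0.12, 0.060 and 0.0076, and *Mmp28* at 0.11, 0.075 and 0.0036; *Mmp28* was at 0.0225 with 1 surrogate variable, and *Mmp13* at -0.0011 with DESeq2 and -0.0004 with RLE size factors. Without 1 mouse, *Adamts15* ran from -0.57 to 0.33, *Adamts16* from -0.065 to 0.87, *Adamts5* from -0.079 to 0.21, *Adamts9* from -0.060 to 0.071, *Mmp13* from -0.16 to 0.15, *Mmp15* from -0.10 to 0.12, *Mmp19* from -0.094 to 1.31, *Mmp23* from -0.10 to 0.10 and *Mmp28* from -0.19 to 0.22.

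No paired analysis was possible because the columns of the table carry mouse numbers and not the replicate numbers of the labels. Depth limits members with few reads, such as *Timp1* in WT mice with 3 to 20 reads, where a log2 fold change rests on counts near the floor.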
